A study of Mus musculus with 12 samples.

Results

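The 37 genes encoded on the mouse mitochondrial genome were followed through RNA-seq libraries of 8-cell embryos in which the transcription factors Nr5a2 and Klf5 had been depleted. The genes were all those that the deposited files place on chromosome M, which is 37 of the 55401 genes in the files. They comprise 13 mRNAs, 2 rRNAs and 22 tRNAs, and each held counts in at least 3 of the 12 libraries. Zygotes of B6129F1 females aged 3 to 5 weeks, mated to B6CBAF1 males, were injected with siRNA and cultured to the 8-cell stage, and 10 embryos were pooled for each library. The groups were control siRNA at 15 µM (n = 2), Nr5a2 siRNA at 5 µM (Nr5a2 KD, n = 3), Klf5 siRNA at 10 µM (Klf5 KD, n = 3) and both siRNAs (Nr5a2 Klf5 dKD, here dKD, n = 4). The concentrations in the dKD mixture are not given in the sources used here. Embryos of every group, control included, also received H2B-EGFP at 150 ng/µl, and ERCC spike-in RNA was added to every lysate. Nothing in the labels says whether replicates of a group came from separate injections, so p-values measure the spread between these pools, which may be technical.

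The mitochondrial genome is a small circular DNA, present in many copies per cell and inherited through the oocyte. It is transcribed from both strands into long precursors that are cut at the tRNAs, which releases mRNAs and rRNAs that are then polyadenylated in the organelle. Its mRNAs encode subunits of the respiratory chain and of ATP synthase, its rRNAs form the mitochondrial ribosome, and its tRNAs serve translation there. Early embryos rely on the mitochondria that the egg supplied, and mitochondrial DNA is copied little before implantation. A level measured in pooled embryos cannot tell fewer cells or fewer mitochondria from less RNA in each.

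The libraries held 6676683 to 12560926 gene counts, and 19257 to 20940 genes had at least 1 count. The targeted genes were low where the labels say so. Nr5a2 was at 210 and 225 CPM (gene counts scaled to a common library size) in control, 24.1 to 38.8 CPM in Nr5a2 KD and 25.2 to 33.8 CPM in dKD. In Klf5 KD, where it was not targeted, Nr5a2 was at 117, 255 and 203 CPM, the lowest value being that of replicate 1. Klf5 was at 444 and 466 CPM in control, 72.7 to 144 CPM in Klf5 KD and 39.9 to 82.0 CPM in dKD, and it was also lower in Nr5a2 KD, at 109 to 158 CPM. All 7 markers of the 8-cell embryo had counts in each library. The 9 markers of cumulus and granulosa cells, the ovarian cells around the egg, summed to 9.19 to 22.6 CPM, and 3 to 5 of them had a count in a library. The 6 oocyte and egg markers, of which 5 or 6 had a count, summed to 98.5 and 99.0 CPM in control, 75.4 to 93.0 CPM in Nr5a2 KD, 58.6 to 77.1 CPM in Klf5 KD and 46.3 to 126 CPM in dKD, and their part in the mitochondrial values was not tested. The 2-cell markers summed to 6.83 to 18.9 CPM over all libraries. Of the 8-cell markers, 2 of 7 were called lower in Nr5a2 KD (background 4.42% of all genes tested) and 1 in dKD (background 3.85%) against control.

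A first property of these genes is set by sequence. A block of 4662 bases of the mitochondrial genome, chrM:6381-11042 (GRCm38), has 7 annotated counterparts on nuclear chromosome 1 at chr1:24611535-24616197, on the minus strand, where GENCODE M21 places 7 unprocessed pseudogenes in the same order and at nearly the same spacing. Of the 37 mitochondrial genes, 11 lie inside this block (6 mRNAs and 5 tRNAs), 2 lie partly inside and 24 lie outside. The copy was measured from the annotated transcripts as the share of a gene's 50-base words that occur, letter for letter, in a nuclear gene. It was 100% for mt-Co2, 99.9% for mt-Co3, 99.5% for mt-Atp6, 98.8% for mt-Nd4l and 98.0% for mt-Nd3. It was 62.2% for mt-Nd4, 51.1% for mt-Co1, 8.19% for mt-Nd2, 7.61% for mt-Nd5 and 1.04% for mt-Rnr2. No such word was shared by mt-Cytb, mt-Nd1, mt-Nd6, mt-Rnr1, mt-Atp8 or any tRNA, but mt-Atp8 (all but its last 43 bases) and the 5 tRNAs of the block (mt-Ts1 all but 3 bases) fall between the annotated pseudogenes, and the nuclear sequence there was not analysed here.

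The following sequences from GENCODE M21 show how exact the copy is and where the match to single pseudogenes begins or ends. Lower-case letters are an unbroken exact match to the nuclear pseudogene, and capitals mark bases outside that match. The first is the whole of mt-Nd4l (chrM:9877-10173, plus strand), which Gm10222 matches over 294 of 297 bases. Its last 3 bases lie in its 7-base overlap with mt-Nd4, where Gm28439 matches without a difference. The capitals there mark the end of Gm10222 and not the end of the copy. The second is the part of mt-Nd4 where the match to Gm28439 ends (chrM:11003-11082, plus strand), and the third the part of mt-Co1 where the match to Gm29216 begins (chrM:6354-6433, plus strand).
mt-Nd4l: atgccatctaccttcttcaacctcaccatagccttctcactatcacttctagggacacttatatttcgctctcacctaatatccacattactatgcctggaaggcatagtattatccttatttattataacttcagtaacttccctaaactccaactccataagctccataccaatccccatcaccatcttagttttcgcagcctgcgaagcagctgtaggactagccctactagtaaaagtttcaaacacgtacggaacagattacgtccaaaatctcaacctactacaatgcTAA
mt-Nd4: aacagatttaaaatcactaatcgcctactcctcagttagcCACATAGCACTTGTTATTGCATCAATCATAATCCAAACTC
mt-Co1: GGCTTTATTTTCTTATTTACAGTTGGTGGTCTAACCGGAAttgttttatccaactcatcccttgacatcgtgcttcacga

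Over the 7 pseudogenes, the annotated sequences differed from the mitochondrial ones at 7 bases. Counted from the 5′ end of the mitochondrial gene, with its base first, these were T3C in mt-Nd3 and T1056A, C1057T, A1059G, A1060G, C1062A and A1066T in mt-Co1. The copies in Gm28661 (mt-Co2), Gm10925 (mt-Atp6), Gm28437 (mt-Co3), Gm10222 (mt-Nd4l) and Gm28439 (mt-Nd4) had no difference over 681, 678, 783, 294 and 876 bases.

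The counts followed the outline of this block. Levels between genes were compared per length, as CPM per kb of exon. The 7 mRNAs and rRNAs outside the block had medians over the 12 libraries of 2156 to 36767 CPM per kb, and the 6 mRNAs inside it had medians of 10.3 to 228 CPM per kb. mt-Co3, a core subunit of cytochrome c oxidase (complex IV), had 35.0 to 123 counts in a library, and mt-Co2, another core subunit, had 40.3 to 122.5 counts. mt-Atp6 and mt-Atp8, the mitochondrial subunits of ATP synthase, had 58.5 to 207 and 19.0 to 63.2 counts, and mt-Nd4l, a small subunit of NADH dehydrogenase (complex I), had 8.42 to 56.6 counts. mt-Nd3, another complex I subunit, was the highest of the 6, with 446 to 877 counts. By contrast mt-Cytb, the cytochrome b of complex III, had 146902 to 379242 counts. All 6 mRNAs of the block together made up 0.0983% to 0.220% of the mitochondrial counts of a library.

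The tRNAs showed the same outline less evenly. The 5 inside the block had medians of 0 to 619 CPM per kb, and the 17 outside had medians of 48.8 to 4885 CPM per kb, so the ranges overlapped. The lysine tRNA mt-Tk had a fraction of a count in 3 libraries (0.330 to 0.830) and 0 in the other 9, where a count of 0 allows up to 3 counts in a library. The serine tRNA mt-Ts1, which overlaps the end of mt-Co1 by 3 bases, had 274 to 554 counts and the highest level of the 5. A read pair on 2 genes was split between them, and the SMART-seq v4 libraries start from polyadenylated RNA, so counts on a tRNA cannot be told apart from counts on uncut RNA that runs into it.

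**Figure D1:**
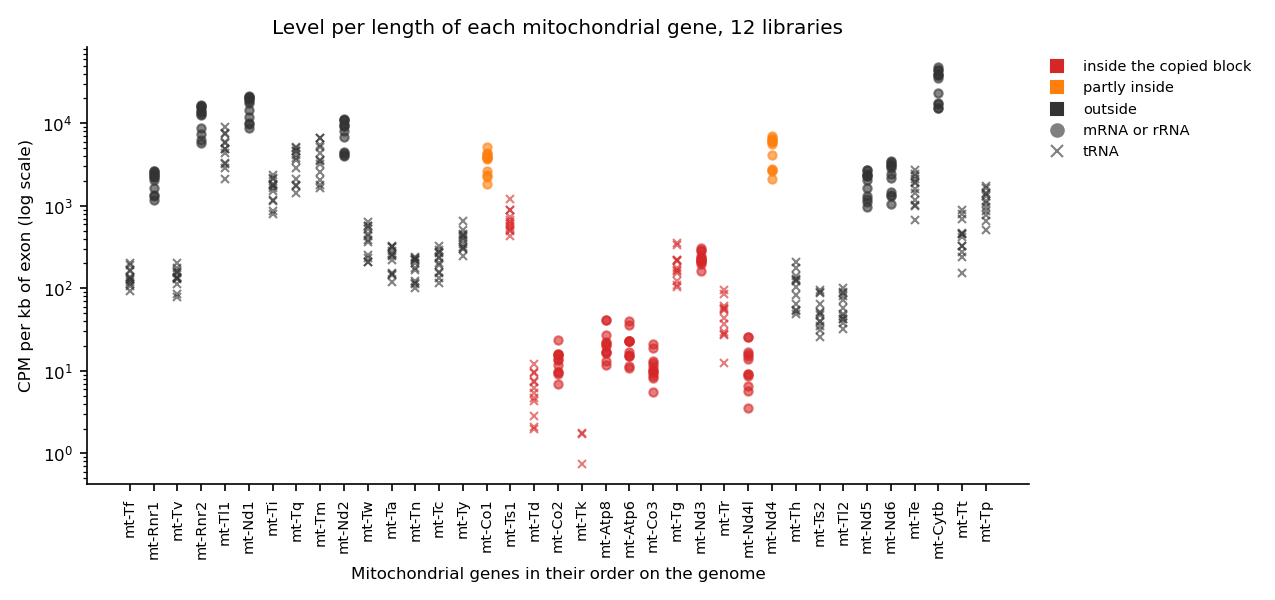
CPM per kb of exon (log axis) of the 37 mitochondrial genes in their order on the genome, 1 point for each of the 12 libraries with a value above 0. Red marks the 11 genes inside the copied block, where the mRNAs had medians of 10.3 to 228 CPM per kb, and orange the 2 partly inside it.

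The nuclear copies held few counts themselves. Summed over the 12 libraries, Gm10925 had 1782 counts against 1344 on mt-Atp6, and Gm28661 had 1165 against 870 on mt-Co2. Gm28437 had 451 against 860 on mt-Co3, Gm10222 had 93.5 against 357 on mt-Nd4l, and Gm28438 had 63.5 against 7813 on mt-Nd3. Gm28439, Gm29216 and Gm13340, which match parts of mt-Nd4 and mt-Co1, had 284, 262 and 159 counts. The headers of the files show that pairs mapped to several places were not counted. How many pairs from the block were set aside in this way was not tested, since the files hold counts and not reads.

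For mt-Nd4 and mt-Co1, which hold both kinds of sequence, the level depended on the length used. mt-Nd4, a complex I subunit, had a median of 5831 CPM per kb of exon and 16007 CPM per kb of words without a nuclear match. mt-Co1, the catalytic subunit of complex IV, had 3848 and 8134 CPM per kb on the same scales. For mt-Nd2 the values were 8652 and 9891 CPM per kb, and for mt-Nd5 2156 and 2398 CPM per kb. The order of levels among the mRNAs thus depended on this choice, with mt-Nd4 below mt-Nd2 per kb of exon and above it per kb of words without a nuclear match.

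Among the genes outside the block, mt-Cytb had the highest level, with a median of 36767 CPM per kb and a range of 15125 to 48234 CPM per kb over the libraries. mt-Nd1, which encodes a membrane subunit of complex I, followed at 18227 CPM per kb (8848 to 21396), and the large rRNA mt-Rnr2 at 13353 CPM per kb (5808 to 16436). mt-Nd2, also of complex I, was at 8652 CPM per kb (3970 to 11208). mt-Nd6, at 2660 CPM per kb, mt-Rnr1, the small rRNA, at 2244, and mt-Nd5 at 2156 CPM per kb had ranges that overlapped widely. mt-Nd6 is the only mRNA read from the other strand, together with 8 tRNAs. Counting did not use strand, so reads of mt-Nd6 cannot be told apart from antisense RNA of the opposite strand. Summed over the libraries, the highest tRNA by counts was the leucine tRNA mt-Tl1, with 1710 to 4456 counts, then mt-Tm (methionine) with 963 to 3120 and mt-Tq (glutamine) with 868 to 2501 counts. The order differed in single libraries, as in Klf5 KD replicate 1, where mt-Tm had 1947 and mt-Tl1 1770 counts.

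Counts on the 37 genes, as a percentage of all gene counts, gave the mitochondrial share of each library. It was 13.17% and 12.94% in the control libraries. In Nr5a2 KD it was 10.36%, 12.52% and 6.18%, and in Klf5 KD 4.41%, 8.28% and 11.81%. In dKD it was 12.75%, 12.63%, 6.75% and 6.17%. Both control libraries were above every knockdown library, and within each knockdown group the highest library was at 2.03 to 2.68 times the lowest. Counting error was far smaller than these differences: the 95% Wilson interval was 4.401% to 4.423% for the lowest library and 13.14% to 13.19% for the highest, and it covers counting error only.

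The group means were 13.05% ± 0.164 (SD, n = 2) in control, 9.69% ± 3.23 (n = 3) in Nr5a2 KD, 8.17% ± 3.70 (n = 3) in Klf5 KD and 9.58% ± 3.61 (n = 4) in dKD. The share was lower than in control by 3.37 percentage points in Nr5a2 KD (two-sided exact permutation p = 0.20, adjusted over 5 comparisons 0.33). It was lower by 4.89 points in Klf5 KD (exact permutation p = 0.20, adjusted 0.33) and by 3.48 points in dKD (exact permutation p = 0.13, adjusted 0.33). With these group sizes the smallest possible p is 0.10 for 3 against 2 libraries and 0.067 for 4 against 2, so the test could not pass 0.05. dKD differed by -0.109 points from Nr5a2 KD (exact permutation p = 0.97) and by 1.41 points from Klf5 KD (exact permutation p = 0.63), where the smallest possible p is 0.029. The labels do not say that replicate numbers pair libraries. Matched by number, a pairing taken from correlations in these same data, the share was higher in dKD than in Nr5a2 KD in 3 of 3: 12.75% against 10.36%, 12.63% against 12.52% and 6.75% against 6.18%, with dKD replicate 4 unpaired. Nr5a2 KD replicate 3 (6.178%) correlated about as much with dKD replicate 4 (6.171%, r = 0.26) as with dKD replicate 3 (r = 0.25). In that other match the share was not higher in dKD. The 3 comparisons with control share the same 2 control libraries.

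The file headers give each library a running number, and the 3 with the highest were dKD replicates 3 and 4 and Nr5a2 KD replicate 3, the lowest of their groups at 6.17% to 6.75%. The sources do not say what the number stands for. Klf5 KD replicate 1, with a low running number, was lower still at 4.41%, and it was also the deepest library. Without these 3 libraries the difference from control was -0.357 points in dKD and -1.61 points in Nr5a2 KD, and the share in dKD was higher than in Nr5a2 KD by 1.26 points, a change of sign.

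Single genes carried the spread in a regular way. Of the 37 genes, 9 had a median of at least 1% of the mitochondrial counts (mt-Cytb, mt-Rnr2, mt-Nd1, mt-Nd2, mt-Nd4, mt-Co1, mt-Nd5, mt-Rnr1 and mt-Nd6), and together they held 98.2% to 98.6% of these counts in each library. Within Nr5a2 KD, replicate 2 exceeded replicate 3 by 6.34 points, a ratio of 2.03, and all 9 genes were higher there by ratios from 1.66 (mt-Co1) to 2.23 (mt-Nd6). Within Klf5 KD, replicate 3 exceeded replicate 1 by 7.40 points, a ratio of 2.68, with ratios for the 9 genes from 2.03 (mt-Rnr1) to 3.01 (mt-Nd6). Within dKD, replicate 1 exceeded replicate 4 by 6.58 points, a ratio of 2.07, with ratios from 1.64 (mt-Co1) to 2.42 (mt-Cytb). Thus the spread lay in all 9 genes at once, both rRNAs included, though not by equal ratios.

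In percentage points mt-Cytb was the largest single part. It made up 38.5% of the difference between the highest and lowest library in Nr5a2 KD, 40.3% in Klf5 KD and 41.7% in dKD. mt-Rnr2 made up 19.3%, 20.8% and 18.2%, and mt-Nd1 15.2%, 11.7% and 13.6%. The 2 control libraries differed by 0.231 points, and 3 of the 9 genes were higher in replicate 1.

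**Figure D2:**
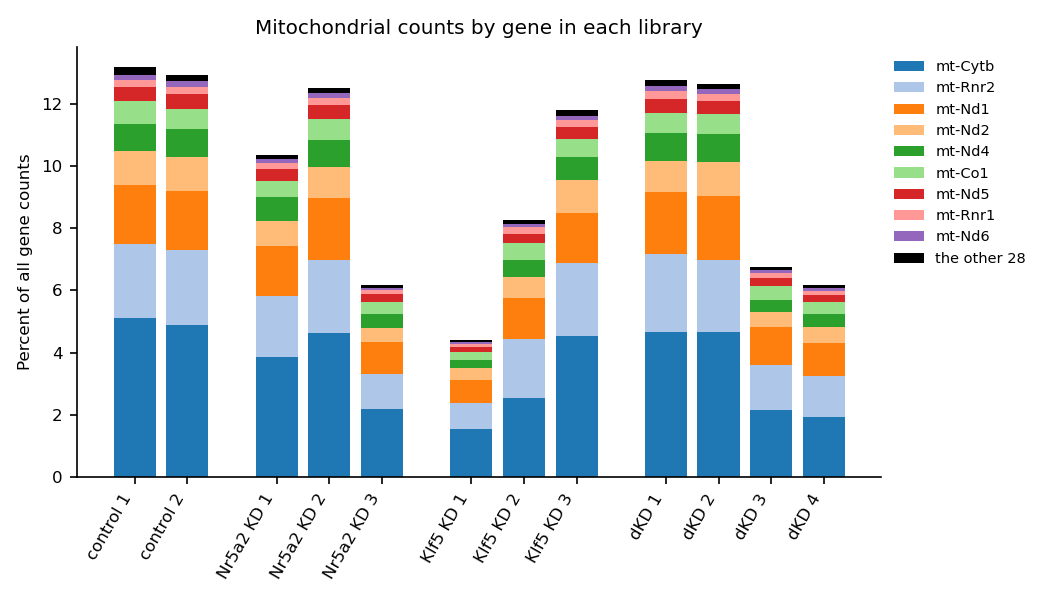
Mitochondrial counts of each library as a percentage of all gene counts, stacked by gene, with libraries ordered by group and replicate. The bars reach 13.17% and 12.94% in control and 4.41% to 12.75% in the knockdown groups, and mt-Cytb, mt-Rnr2 and mt-Nd1 shrink together in the low libraries.

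The ERCC spike-ins moved with the mitochondrial share. ERCC counts made up 0.398% and 0.459% of the control libraries. They ranged between 0.204% and 0.369% in Nr5a2 KD, between 0.215% and 0.378% in Klf5 KD and between 0.223% and 0.351% in dKD. Over the 12 libraries the ERCC share and the mitochondrial share had Pearson's r = 0.89 (permutation p = 0.00035, adjusted over 3 relations 0.0011) and Spearman's rho = 0.90 (permutation p = 0.00022, adjusted 0.00066). Without the 2 libraries farthest from the median ERCC share, both of them controls, r was 0.91 (permutation p = 0.0012). Both shares are of nearly the same library total, so they fall together where nuclear counts rise. Depth had r = -0.59 with the mitochondrial share (permutation p = 0.018, adjusted 0.027) and rho = -0.51 (permutation p = 0.094, adjusted 0.094). Without its 2 farthest libraries, Nr5a2 KD replicate 1 and Klf5 KD replicate 1, r was -0.39 (permutation p = 0.28), so that relation rested on these libraries. The number of genes detected had r = -0.55 (permutation p = 0.065, adjusted 0.065) and rho = -0.55 (permutation p = 0.072, adjusted 0.094), and r = -0.45 (permutation p = 0.20) without its 2 farthest libraries.

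Set against the spike-ins, the groups came close to each other. There were 33.0 and 28.1 mitochondrial counts per ERCC count in control, 36.3, 33.8 and 30.3 in Nr5a2 KD, 20.4, 34.7 and 31.1 in Klf5 KD, and 41.7, 35.9, 27.3 and 27.7 in dKD. Both control values lay within the range of Klf5 KD and of dKD, and 1 of them within that of Nr5a2 KD. The mean exceeded control by 2.94 counts per ERCC count in Nr5a2 KD (exact permutation p = 0.40) and by 2.61 in dKD (exact permutation p = 0.80), and it was 1.77 below control in Klf5 KD (exact permutation p = 0.90). The ratio rests on 14597 to 35880 ERCC counts per library.

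**Figure D3:**
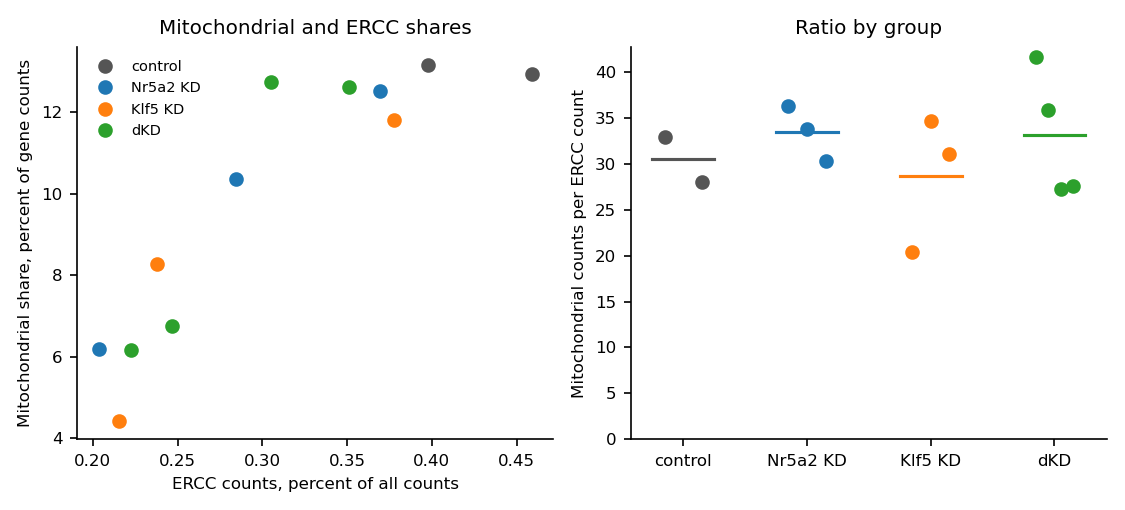
Left, the mitochondrial share (percent of gene counts) against the ERCC share (percent of all counts), 1 point per library; right, mitochondrial counts per ERCC count by group, with the mean as a line. The shares rise together (r = 0.89), and the ratios run from 20.4 to 41.7 with control at 28.1 and 33.0.

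The single genes were then compared between groups with edgeR's quasi-likelihood test and Benjamini-Hochberg adjustment over all genes. Calls required a change of 2-fold or more and an adjusted p below 0.05. In each comparison 35 of the 37 genes passed the filter on low counts. The exceptions were mt-Td and mt-Tk, both inside the copied block.

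In Nr5a2 KD, all 35 genes had a lower estimate than in control, with a median log2 fold change of -0.65 beside 0.04 over the 13262 genes tested. Of them 4 were called lower (background 4.42% of all genes tested) and 0 higher (background 3.45%). DESeq2 also called 4 lower (background 4.76%). At an unadjusted p under 0.05, 17 were lower (background 12.1%) and 0 higher (background 12%). Among mRNAs and rRNAs the estimates ran from -1.56 (mt-Nd4l) to -0.39 (mt-Nd1). The abundant genes were not called: mt-Cytb was at 55180 and 50764 CPM in control and at 40113, 44526 and 19592 CPM in Nr5a2 KD, where the groups did not overlap (log2 fold change -0.59 ± 0.30 SE, edgeR adjusted p = 0.25). For mt-Rnr2 the estimate was -0.50 ± 0.29 (edgeR adjusted p = 0.33), for mt-Rnr1 -0.40 ± 0.28 (0.41) and for mt-Nd1 -0.39 ± 0.28 (0.44). These sizes depended on single libraries. Leaving out 1 library gave -0.80 to -0.30 for mt-Cytb, -0.71 to -0.21 for mt-Rnr2, -0.57 to -0.14 for mt-Rnr1 and -0.59 to -0.13 for mt-Nd1.

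The 4 genes called lower in Nr5a2 KD all had few counts. The threonine tRNA mt-Tt, which lies just after mt-Cytb and outside the block, was at 53.4 and 59.0 CPM in control and at 22.1, 30.5 and 10.2 CPM in Nr5a2 KD (log2 fold change -1.40 ± 0.35 SE, edgeR adjusted p = 0.029). The other 3 lie inside the block. The glycine tRNA mt-Tg was at 22.9 and 24.4 CPM in control and at 8.43, 11.0 and 7.00 CPM in Nr5a2 KD (-1.39 ± 0.30, edgeR adjusted p = 0.016). mt-Atp6 fell from 26.2 CPM ± 2.13 (SD, n = 2) to 11.5 CPM ± 4.08 (n = 3), with a log2 fold change of -1.17 ± 0.33 SE (edgeR adjusted p = 0.047). mt-Co3 fell from 15.7 CPM ± 1.09 (n = 2) to 6.44 CPM ± 1.78 (n = 3), with a log2 fold change of -1.26 ± 0.35 SE (edgeR adjusted p = 0.044). No library of Nr5a2 KD reached control for any of the 4. Nearly all of mt-Atp6 and mt-Co3 has an exact match on chromosome 1 and pairs mapped to several places were not counted, and the part of this in their values was not tested. Their nuclear copies, for which no test is given, had lower means in Nr5a2 KD as well: Gm10925 was at 30.8 CPM ± 2.71 (SD, n = 2) in control and 15.4 CPM ± 4.21 (n = 3) in Nr5a2 KD, and Gm28437 at 8.45 CPM ± 0.826 and 3.84 CPM ± 0.749. All 4 calls were lost without either control library or without Nr5a2 KD replicate 1, though over the 5 refits that each leave out 1 library the log2 fold changes ranged over -1.77 to -1.07 (mt-Tt), -1.58 to -1.26 (mt-Tg), -1.44 to -0.92 (mt-Atp6) and -1.37 to -1.05 (mt-Co3). Without Nr5a2 KD replicate 3, which had a low mitochondrial share (background 4.56%), those on mt-Tt and mt-Tg held (edgeR adjusted p = 0.014 and 0.021) and those on mt-Atp6 and mt-Co3 did not (0.061 and 0.064). Without Nr5a2 KD replicate 2, 6 genes were called (background 4.4%), and with the replicate number as a block 2 were (background 3.83%).

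In Klf5 KD, all 35 genes again had a lower estimate than in control, with a median log2 fold change of -0.63 beside 0.00455 over the 12838 genes tested. None was called lower (background 0%) or higher (background 0%) by edgeR, and none by DESeq2, which called 42 lower and 8 higher of all 12838. At an unadjusted p under 0.05, 12 were lower (background 4.67%) and 0 higher (background 3.8%). mt-Cytb was at 17525, 26488 and 50157 CPM in Klf5 KD, the last just below the lower control, and its estimate was -0.76 ± 0.32 (edgeR adjusted p = 0.57). mt-Nd1 had -0.59 ± 0.26 (edgeR adjusted p = 0.57), mt-Rnr2 -0.48 ± 0.31 (0.68) and mt-Rnr1, the smallest among mRNAs and rRNAs, -0.32 ± 0.27 (0.76). Leaving out 1 library gave -1.26 to -0.48 for mt-Cytb, -0.85 to -0.36 for mt-Nd1, -0.81 to -0.16 for mt-Rnr2 and -0.52 to -0.093 for mt-Rnr1. The lowest estimate was that of mt-Atp6, at -1.10 ± 0.32 (edgeR adjusted p = 0.44), with 12.2 CPM ± 3.16 (SD, n = 3). Without Klf5 KD replicate 3, the library with the highest share of its group, 1 gene was called lower (background 0.119%), and with the replicate number as a block, which leaves Klf5 KD replicate 3 without a control partner, 9 were (background 1.14%).

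In dKD, all 35 genes had a lower estimate than in control too, with a median log2 fold change of -0.62 beside 0.05 over the 13724 genes tested. Of them 1 was called lower (background 3.85%) and 0 higher (background 3.38%). At an unadjusted p under 0.05, 14 were lower (background 11.7%) and 0 higher (background 13.3%). The called gene was again mt-Tt, at 28.02, 30.32, 21.77 and 18.71 CPM, all below control (-1.15 ± 0.24 SE, edgeR adjusted p = 0.015). Without dKD replicates 3 and 4 its log2 fold change was -0.92 (edgeR adjusted p = 0.033), short of 2-fold. The leucine tRNA mt-Tl1 passed the adjusted p in dKD without reaching 2-fold: it was at 674 and 577 CPM in control and at 441, 365, 246 and 238 CPM in dKD (-0.92 ± 0.25 SE, edgeR adjusted p = 0.045). In Nr5a2 KD its estimate was close (-0.93 ± 0.27 SE, edgeR adjusted p = 0.054). mt-Cytb was at 44748, 44011, 20145 and 17303 CPM in dKD (-0.71 ± 0.33 SE, edgeR adjusted p = 0.21). Among mRNAs and rRNAs the estimates ran from -1.25 (mt-Nd4l) to -0.34 (mt-Nd3), with -0.48 for mt-Rnr2, -0.42 for mt-Rnr1 and -0.40 for mt-Nd1. Leaving out 1 library gave -0.93 to -0.51 for mt-Cytb, -0.66 to -0.33 for mt-Rnr2, -0.58 to -0.30 for mt-Rnr1 and -0.55 to -0.24 for mt-Nd1. With dKD replicate 1 left out 7 genes were called lower (background 5.02%), with replicate 2, 3 or 4 left out 1 was (background 4.02%, 3.15% and 2.99%), and with either control library left out, or with the replicate number as a block, none. DESeq2 called 3 in place of 1 (background 4.7%).

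**Figure D4:**
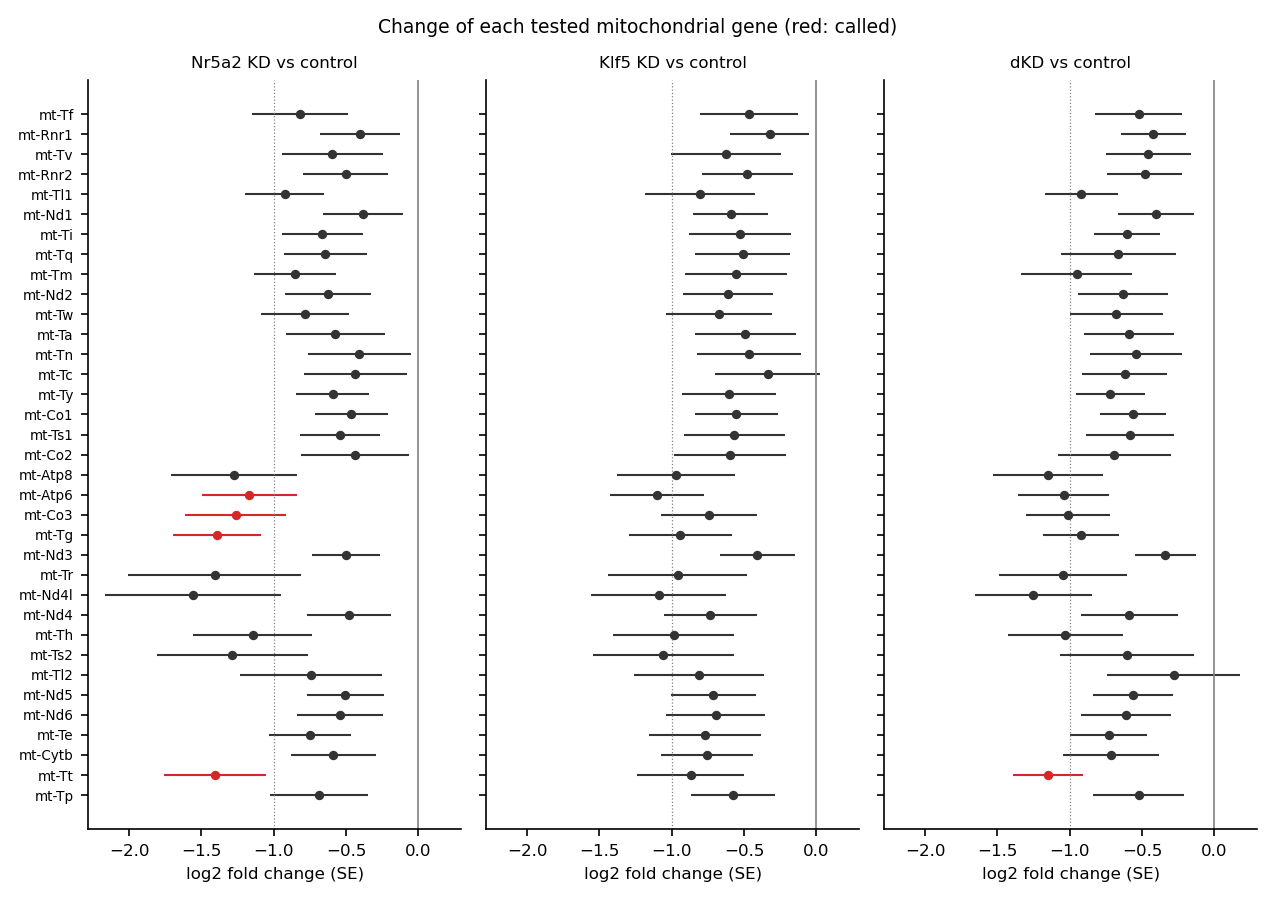
Log2 fold change against control, with its SE, of the 35 tested mitochondrial genes in their order on the genome, for each knockdown group; the dotted line marks 2-fold lower and red the genes called. All estimates lie below 0, with medians of -0.65, -0.63 and -0.62, and the called genes are 4 in Nr5a2 KD, 0 in Klf5 KD and 1 in dKD.

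Between the knockdown groups no mitochondrial gene was called. In dKD against Nr5a2 KD, 0 of 35 were called lower (background 0%) or higher (background 0%), and 0 passed an unadjusted p under 0.05 lower (background 1.93%) or higher (background 1.51%). The median log2 fold change was 0.00599 beside 0.01 over all genes tested, with 17 of 35 estimates negative. With the replicate number as a block the median was 0.16, 3 of 35 were negative and again none was called. In dKD against Klf5 KD, 0 were called lower (background 5.41%) or higher (background 5.38%), and 0 passed an unadjusted p under 0.05 lower (background 13%) or higher (background 13.6%). The median there was -0.04 beside 0.02 over all genes tested. DESeq2 called none of the 35 in either comparison, beside 4 lower and 0 higher of 13017 genes against Nr5a2 KD and 790 lower and 879 higher of 12904 against Klf5 KD. The SE of these differences, 0.37 for mt-Cytb against Nr5a2 KD and 0.38 against Klf5 KD, shows how much change the spread between libraries could hide.

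With library sizes taken from the ERCC counts, the scale on which all genes were read shifted. The median log2 fold change over all genes became 0.82 in Nr5a2 KD, 0.66 in Klf5 KD and 0.84 in dKD, and that of the mitochondrial genes 0.02, -0.06 and 0.09. On that scale 17 of 35 genes in Nr5a2 KD, 21 in Klf5 KD and 12 in dKD had a lower estimate than in control, and none was called. Over all genes tested 90 were called lower and 761 higher in Nr5a2 KD, 4 and 21 in Klf5 KD, and 178 and 2838 in dKD. Another library size moves all genes of a library alike, so the gap between both medians is no second measurement. Against control the median mitochondrial gene was lower in all 3 groups on the scale set by the other genes, and on the ERCC scale it was slightly lower in Klf5 KD and slightly higher in Nr5a2 KD and dKD.

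Dividing by the mitochondrial total asks whether single genes moved by other amounts than the set. In that fit no gene was called in any of the 5 comparisons, and none passed an unadjusted p under 0.05. Over all genes that fit called 64 lower and 299 higher in Nr5a2 KD, 0 and 0 in Klf5 KD, 60 and 284 in dKD, 0 and 0 in dKD against Nr5a2 KD, and 202 and 172 in dKD against Klf5 KD. The smallest adjusted p among the 35 genes was 0.31 in Nr5a2 KD, 0.66 in Klf5 KD and 0.49 in dKD. Its errors were wide: in Nr5a2 KD the estimates relative to the mitochondrial total were -1.12 ± 0.68 SE for mt-Nd4l, -0.92 ± 0.54 for mt-Tt and -0.80 ± 0.55 for mt-Tg. For mt-Cytb the SE was 0.19 in Nr5a2 KD, 0.58 in Klf5 KD and 0.25 in dKD, beside 0.30, 0.32 and 0.33 in the main fit. The spread was estimated with all other genes on the same scale, so the lack of calls cannot show that the genes moved alike.

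The rRNA share of the mitochondrial counts was 19.7% and 20.6% in control, 20.95%, 20.6% and 20.1% in Nr5a2 KD, 20.99%, 25.3% and 21.8% in Klf5 KD, and 21.5%, 19.8%, 24.1% and 23.5% in dKD. Klf5 KD replicate 2 and dKD replicates 3 and 4 were the highest, and all Klf5 KD libraries were above both controls. The mean exceeded control by 2.56 percentage points in Klf5 KD (two-sided exact permutation p = 0.20), by 2.08 points in dKD (exact permutation p = 0.20) and by 0.363 points in Nr5a2 KD (exact permutation p = 0.50). dKD was 1.71 points above Nr5a2 KD (exact permutation p = 0.26) and 0.478 points below Klf5 KD (exact permutation p = 0.77). Signs turned without single libraries in 2 comparisons. Nr5a2 KD against control became -0.088 without control replicate 1. The difference of dKD from Klf5 KD became 0.833 without Klf5 KD replicate 2 and 0.320 without dKD replicate 2. For dKD against Nr5a2 KD no single omission turned the sign (1.08 to 2.51). It became -0.068 without the 3 libraries of the highest running numbers. Adjusted over the 5 comparisons, the p-values ran from 0.43 to 0.77. Counts on mt-Rnr2 were 7.34 times (Klf5 KD replicate 1) to 11.2 times (dKD replicate 2) those on mt-Rnr1.

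mt-Cytb made up 38.9% and 37.7% of the mitochondrial counts in control, between 35.4% and 37.1% in Nr5a2 KD, between 30.6% and 38.4% in Klf5 KD and between 31.3% and 36.9% in dKD. It was lowest in the 3 libraries where the rRNA share was highest. mt-Nd1 made up 14.4% and 14.8% in control and reached 17.9% in dKD replicate 3, with 13.7% in Klf5 KD replicate 3 as the lowest value. mt-Co1 ran from 4.78% to 6.90% over all libraries.

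The tRNA share was 1.62% and 1.51% in control and 1.55% to 1.56% in Klf5 KD. It was 1.27%, 1.27% and 1.41% in Nr5a2 KD and 1.38%, 1.27%, 1.37% and 1.49% in dKD. Every library without Nr5a2 siRNA was above every library with it. This was noticed after the values were seen, so no test is given. mt-Tl1, the most counted tRNA, made up 0.475% and 0.429% in control, between 0.302% and 0.387% in Nr5a2 KD, between 0.319% and 0.426% in Klf5 KD and between 0.306% and 0.430% in dKD. Genes of the minus strand together made up 1.68% to 1.90%.

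**Figure D5:**
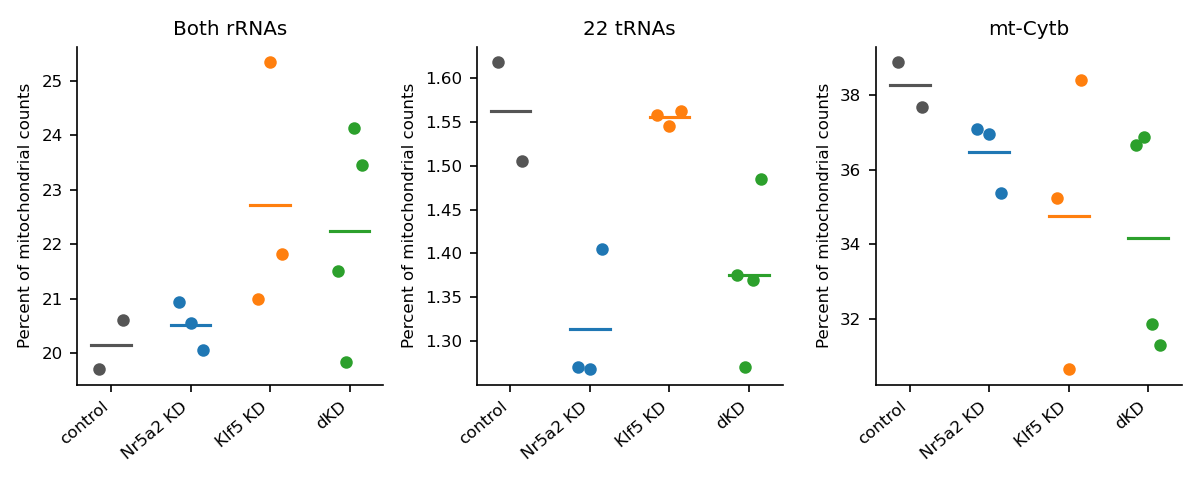
Percentage of the mitochondrial counts on both rRNAs, on the 22 tRNAs and on mt-Cytb, 1 point per library by group, with the mean as a line; the axes do not start at 0. The rRNA share is highest in Klf5 KD replicate 2 at 25.3%, the tRNA share is 1.51% to 1.62% without and 1.27% to 1.49% with Nr5a2 siRNA, and mt-Cytb is lowest at 30.6%.

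Nuclear genes that maintain, transcribe and process mitochondrial DNA and RNA were read from a list of 45. In Nr5a2 KD 41 were tested, 0 were called lower (background 4.42%) and 1 higher (background 3.45%). In Klf5 KD 42 were tested and none was called, and in dKD 43 were tested, with 0 lower (background 3.85%) and 2 higher (background 3.38%). These counts are near the background. The 18 genes of RNA processing and decay had medians of 0.35, 0.03 and 0.54, those of transcription -0.11, -0.02 and -0.17, those of replication 0.17, 0.23 and 0.04, and the nuclear regulators -0.23, 0.03 and -0.15. Over the whole list the medians were 0.17, 0.01 and 0.08 on the log2 scale beside 0.04, 0.00455 and 0.05 over all genes. In dKD against Nr5a2 KD none of 41 was called, and in dKD against Klf5 KD 1 of 43 was called, higher (background 5.38%), and 0 lower (background 5.41%).

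The gene called higher in each comparison that added Nr5a2 siRNA was Grsf1, an RNA-binding protein of the mitochondrial RNA granules where transcripts are processed. It was at 126 and 123 CPM in control, 223, 286 and 234 CPM in Nr5a2 KD, 50.5, 148 and 93.6 CPM in Klf5 KD, and 216, 337, 200 and 255 CPM in dKD. All libraries with Nr5a2 siRNA were above all libraries without it. Its log2 fold change was 1.02 ± 0.23 SE in Nr5a2 KD (edgeR adjusted p = 0.017), 1.06 ± 0.24 in dKD (0.023) and 1.38 ± 0.33 in dKD against Klf5 KD (0.016). Rexo2, an exonuclease that degrades short RNA in mitochondria, was at 11.3 and 7.90 CPM in control and at 17.0, 19.1, 25.6 and 24.5 CPM in dKD (1.21 ± 0.31 SE, edgeR adjusted p = 0.036). In Klf5 KD it was at 17.6, 11.0 and 13.8 CPM and in Nr5a2 KD at 20.3, 12.8 and 33.1 CPM.

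Tefm, the elongation factor of mitochondrial transcription, passed the adjusted p in Nr5a2 KD and in dKD against Klf5 KD without reaching 2-fold, but not in dKD against control, and is named after its values were seen. It was at 99.4 and 112 CPM in control, 66.6, 58.4 and 60.4 CPM in Nr5a2 KD, 119, 104 and 89.1 CPM in Klf5 KD, and 66.1, 41.2, 69.1 and 51.8 CPM in dKD, so every library with Nr5a2 siRNA was below every library without it. Its log2 fold change was -0.75 ± 0.22 SE in Nr5a2 KD (edgeR adjusted p = 0.0497), -0.85 ± 0.25 in dKD (0.055) and -0.85 ± 0.24 in dKD against Klf5 KD (0.033).

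Polrmt, Tfam, Polg, Lrpprc and Mtpap were not called in any comparison. Polrmt, the mitochondrial RNA polymerase, was at 16.2 and 22.6 CPM in control and at 8.52 to 25.8 CPM in the knockdown libraries. Tfam, which packages mitochondrial DNA and starts its transcription, was at 33.7 and 36.9 CPM in control and at 24.2 to 37.6 CPM elsewhere. Polg, the catalytic subunit of the mitochondrial DNA polymerase, was at 7.19 and 5.56 CPM in control and at 2.74 to 9.07 CPM elsewhere. Lrpprc, which stabilises mitochondrial mRNAs, was at 34.3 and 30.5 CPM in control and 24.1 to 60.9 CPM elsewhere, and Mtpap, their poly(A) polymerase, at 39.3 and 34.7 CPM in control and 26.6 to 67.0 CPM elsewhere. Against control their log2 fold changes lay between -0.67 (Polrmt in Nr5a2 KD, edgeR adjusted p = 0.24) and 0.60 (Mtpap in dKD, edgeR adjusted p = 0.17).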

How the data were processed

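The authors trimmed paired-end reads with Trim Galore 0.6.2, aligned them by STAR against GRCm38 plus the spike-in and H2B-EGFP sequences, and counted pairs over exons with featureCounts 2.0.1 (tools from the submitters' processing notes, settings from the file headers). Deposited were estimated counts, with a file for each library: a pair on several genes was split, a pair mapped to several places was left out, strand was not used, and 400 of 444 mitochondrial values were not whole. The headers name a filtered alignment, a step not described. The labels name 2 sequencer models without assigning libraries, and the methods name the NovaSeq. Counts were rounded and tested with edgeR 4.0.16 (TMM, filterByExpr with a minimum count of 10 and total of 15, libraries of the 2 groups), with the SE derived from the F statistic. CPM, counts scaled to a common total, use TMM factors over 12 libraries. DESeq2 1.42.0, other library sizes, other filters, a replicate block and leaving out libraries were alternatives. In simulated counts with 200 genes changed, recovered signs were checked. Deviations of same-numbered Nr5a2 KD and dKD libraries correlated over 14830 genes (r = 0.13, 0.22 and 0.25), so by a rule of r above 0.1 in every pair the numbers pair these groups, although Nr5a2 KD 3 and dKD 4, which share no number, had r = 0.26. Those of dKD and Klf5 KD (-0.12, 0.04 and -0.16) do not, and control shares 2 numbers. Shares were compared by exact permutation over libraries. Sequences and symbols come from GENCODE M21 on the same build, 55141 of 55401 genes being named. All mRNAs and rRNAs were named, tRNAs if called or among the 3 with most counts, list genes if called plus 5 core factors, and at most 8 nuclear copies with at least 10 counts. The members and lists were chosen with earlier results of these data known.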

Additional observations from a re-analysis of the deposited data

Results flagged for a closer look

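In the 4 dKD libraries, 1 value lay far from the other 3 in 2 of the 44 series examined with Dixon's test, which flags about 1 in 20 by chance. For mt-Nd4l, at 4.52, 2.72, 2.55 and 2.73 CPM, the gap to replicate 1 was 0.909 of the range. For mt-Tm, at 0.293%, 0.208%, 0.195% and 0.205% of the mitochondrial counts, the gap to replicate 1 was 0.865 of the range. In a test of whether the effect of Nr5a2 siRNA differed with and without Klf5 siRNA, no mitochondrial gene passed (edgeR interaction over all 12 libraries, 35 genes, smallest adjusted p = 0.95). The smallest unadjusted p was 0.0061, for mt-Tg. The injected H2B-EGFP, which no comparison used, had between 9 and 77 counts in a library, above the 3 counts that a count of 0 allows.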

How the results depend on the processing

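No call on a mitochondrial gene held under every alternative, and the causes were not tested. Genes called lower in Nr5a2 KD against control were 4, but 2 with total counts, with all 12 libraries in the fit and without the 3 libraries of the highest running numbers (Nr5a2 KD replicate 3 and dKD replicates 3 and 4, chosen after seeing the data), and 0 with ERCC or mitochondrial library sizes. Over all genes 586 were called lower, and in these fits 453, 529, 585, 90 and 64. In dKD against control 1 was called, but 2 with nuclear genes alone for TMM, with no filter or with no fold minimum, 3 with DESeq2, and 0 with ERCC or mitochondrial library sizes or without those 3 libraries. Over all genes 529 were called lower, and in these fits 558, 792, 630, 645, 178, 60 and 416. With the replicate number as a block the counts were 2 in Nr5a2 KD, 9 in Klf5 KD (0 without it) and 0 in dKD against control, where the numbers are shared by 2 libraries a group, and the pairing of dKD with Nr5a2 KD changed no call. Leaving out 1 library gave 0 to 6, 0 to 1 and 0 to 7 genes called lower in the 3 control comparisons, and 0 in the other 2. The share differed from control by -4.78 to -1.61 (Nr5a2 KD), -6.71 to -3.01 (Klf5 KD) and -4.53 to -2.34 points (dKD), and dKD by -1.86 to 1.31 from Nr5a2 KD and by -0.46 to 3.23 from Klf5 KD. For the rRNA share the ranges were -0.088 to 0.815, 1.24 to 3.42, 1.45 to 2.88, 1.08 to 2.51 and -1.34 to 0.833. Per ERCC count, Nr5a2 KD and dKD exceeded control by 2.94 and 2.61. Without those 3 libraries the share differed from control by -0.357 points in dKD and -1.61 in Nr5a2 KD, the rRNA share by 0.521 and 0.589, and dKD differed from Nr5a2 KD by 1.26 points in the share and -0.068 in the rRNA share.

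ERCC library sizes raised the median of all genes to 0.82, 0.66 and 0.84, so signs there shift with that scale. On it 17, 21 and 12 of 35 estimates remained negative in Nr5a2 KD, Klf5 KD and dKD. Among the genes whose log2 fold changes are given above, those that turned positive were mt-Cytb (0.064), mt-Nd1 (0.28), mt-Rnr2 (0.15) and mt-Rnr1 (0.27) in Nr5a2 KD, mt-Rnr2 (0.091) and mt-Rnr1 (0.28) in Klf5 KD, and mt-Nd1 (0.32), mt-Rnr2 (0.24), mt-Rnr1 (0.32) and mt-Nd3 (0.43) in dKD. Mitochondrial library sizes centre the set by construction, so signs there are relative to the set, with 23, 16 and 19 of 35 negative. Among the same genes, positive ones were mt-Nd1 (0.15), mt-Rnr2 (0.015) and mt-Rnr1 (0.13) in Nr5a2 KD, mt-Nd1 (0.095), mt-Rnr2 (0.15) and mt-Rnr1 (0.38) in Klf5 KD, and mt-Nd1 (0.21), mt-Rnr2 (0.13), mt-Rnr1 (0.23) and mt-Nd3 (0.37) in dKD. Some genes of the copied block had under 60 counts a library, which limits their estimates, and the cause of the low counts was not tested.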
